A study of Homo sapiens with 15 samples.

Results

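A group of 10 genes of the transforming growth factor beta (TGF-beta) system was followed through the transfected granulosa cells: the ligands TGFB1, TGFB2 and TGFB3, the signalling receptors TGFBR1 and TGFBR2, the coreceptors TGFBR3 and ENG, and the latent-binding proteins LTBP1, LTBP2 and LTBP3. They were chosen by symbol from the 37787 genes of the deposited table. All 10 passed the filter on low counts, which left 13868 genes to test.

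HGrC1 is an immortalised human granulosa cell line, and the 15 libraries of polyadenylated RNA cover 5 conditions with 3 libraries each, lettered A, B and C. Vectors received empty plasmids only. FOXL2WT received plasmids for SMAD3 and wild type FOXL2, and FOXL2C134W received SMAD3 with the FOXL2 variant C134W, the missense change that characterises adult-type granulosa cell tumours. FOXL2WT + FOXO1 and FOXL2C134W + FOXO1 received the same pairs with a constitutively active FOXO1. The plasmids were delivered by lipofection for 4 h and RNA was taken after another 24 h without serum, so that every condition is a transient, serum-starved state of a single line. SMAD3 and FOXL2 enter together, and the contrasts with Vectors therefore measure the pair and not FOXL2 alone. No TGF-beta was named among the agents added. The libraries held 14962245 to 25339094 estimated counts.

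TGF-beta ligands are secreted in a latent form. The propeptide of the ligand stays bound to it and is linked by disulfide bonds to a latent-binding protein, mainly LTBP1, LTBP3 or LTBP4, which anchors the complex to fibrillin and fibronectin, whereas LTBP2 does not bind latent TGF-beta covalently and is a component of microfibrils. Once released by integrins, proteases or thrombospondin, the ligand binds TGFBR2, which recruits and phosphorylates TGFBR1, and TGFBR1 phosphorylates SMAD2 and SMAD3. In the ovary, TGF-beta acts on granulosa cells and on the surrounding theca and stroma.

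The transfected genes were measured first. FOXL2 averaged 8.73 CPM (counts scaled to the same total in each library) in Vectors, 561 CPM in FOXL2WT, 147 CPM in FOXL2C134W, 384 CPM in FOXL2WT + FOXO1 and 152 CPM in FOXL2C134W + FOXO1. SMAD3 averaged 249 CPM in Vectors, 2768 CPM in FOXL2WT, 843 CPM in FOXL2C134W, 969 CPM in FOXL2WT + FOXO1 and 392 CPM in FOXL2C134W + FOXO1. FOXO1 averaged 117 CPM in FOXL2WT + FOXO1 and 43.2 CPM in FOXL2C134W + FOXO1, against at most 13.8 CPM in any library of the conditions without its plasmid. The wild type and the variant conditions thus differed in the transcript level of all plasmids, and in every contrast between them the variant and the dose cannot be told apart. Of 11 granulosa markers other than FOXL2, 8 passed the filter. The highest were KRT18 at 1668 to 1920 CPM and GATA4 at 129 to 154 CPM, and WT1 had a median of 44.1 CPM. INHBA, NR5A1, HSD17B1, INHBB and AMH had low medians of 7.48, 5.84, 3.97, 1.28 and 1.20 CPM. INHA did not pass the filter (median 0.067 CPM). The FSH receptor gene FSHR had 0 counts in all 15 libraries and the aromatase gene CYP19A1 had 0 counts in 9.

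The members differed widely in level. On a scale corrected for transcript length, TGFB2 was the most abundant, with 96.5 ± 2.22 TPM (transcript abundance per length on a fixed total, mean ± SD, n = 3) in Vectors. TGFBR2 followed at 55.8 ± 2.63 TPM, TGFB1 at 38.9 ± 5.01 TPM, ENG at 27.5 ± 1.69 TPM and LTBP2 at 19.6 ± 2.68 TPM. LTBP3 at 12.3 ± 1.12 TPM and TGFBR1 at 12.1 ± 0.73 TPM did not differ beyond their spread. TGFBR3, TGFB3 and LTBP1 were close to the lower end of the measured range, at 1.93 ± 0.38, 1.63 ± 0.19 and 1.05 ± 0.16 TPM. TGFBR3 and TGFB3 overlapped between libraries also when CPM were divided by effective length. On that scale LTBP3 and TGFBR1 did not overlap in Vectors, at 12.7 ± 1.29 and 11.1 ± 0.075 CPM per kb. That scale placed all 10 members in the same order as TPM. LTBP1 rested on 21 to 64 counts per library and TGFB3 on 25 to 58 counts, against 4619 to 8240 counts for TGFB2. TGFB2 made up 67.8% to 75.9% of the summed TPM of the 3 ligands over the 15 libraries.

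**Figure D1:**
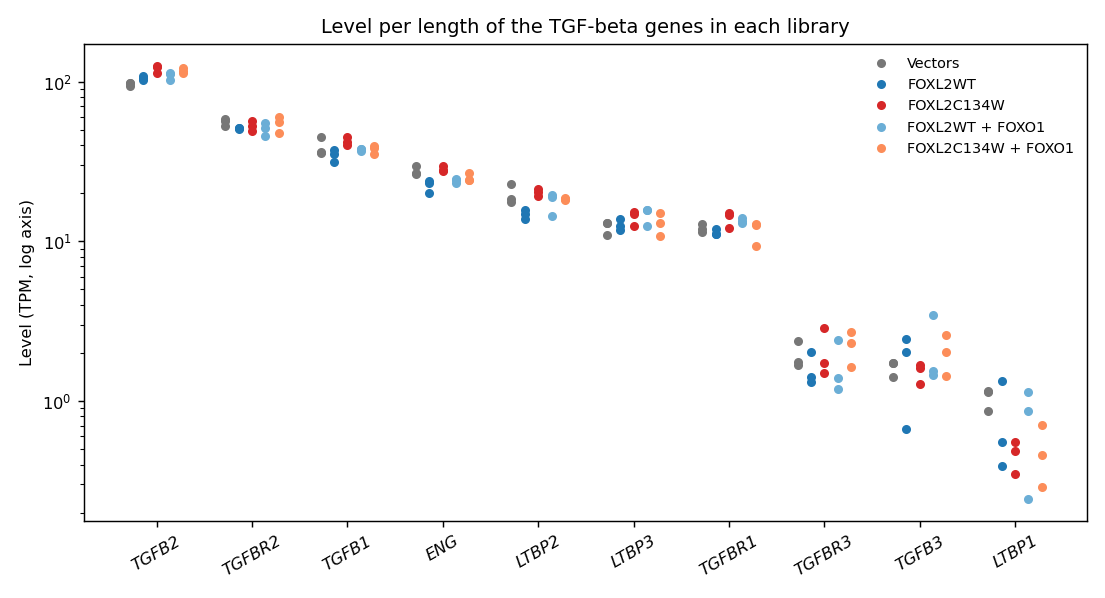
Level of the 10 genes in TPM (log axis) in each of the 15 libraries, with 1 point per library and 1 colour per condition. TGFB2 lies highest in every condition, and TGFBR3, TGFB3 and LTBP1 form a low group under 4 TPM, separated from the other members.

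TGFB2 encodes a ligand that is bound poorly by TGFBR2 unless a coreceptor, chiefly TGFBR3, presents it. The gene lies on the plus strand of chromosome 1 (GRCh38, chr1:218345336-218444619). The 250 bases before its start are shown because TGFB2 was the member called in most comparisons. That rank includes the comparisons of the FOXO1 conditions with Vectors, which were added after the data were seen. Without them LTBP2 was called more often than TGFB2. The same bases of ENG and LTBP2 are shown because both fell with FOXL2WT and were higher with FOXL2C134W than with FOXL2WT. All are RefSeq sequences (GRCh38.p14), in the direction of the gene. ENG lies on the minus strand of chromosome 9 (chr9:127815013-127854658) and LTBP2 on the minus strand of chromosome 14 (chr14:74498183-74612378). The RefSeq start of LTBP2 lies inside that interval. The greater part of its window, from 74612238 to 74612378, therefore lies inside the annotated gene. Capitals mark matches on either strand to 7 motifs: the SMAD element CAGAC, the forkhead core TAAACA, the cyclic AMP response element TGACGTCA, the AP-1 element TGANTCA, the E-box CACGTG, the TATA box TATAAA and the GC box GGGCGG.
TGFB2, chr1:218345086-218345335, plus strand: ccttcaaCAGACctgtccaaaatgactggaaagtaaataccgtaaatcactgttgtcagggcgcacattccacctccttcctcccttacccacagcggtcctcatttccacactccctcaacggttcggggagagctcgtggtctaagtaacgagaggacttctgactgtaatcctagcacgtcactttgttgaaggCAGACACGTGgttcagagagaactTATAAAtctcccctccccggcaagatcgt
ENG, chr9:127854659-127854908, minus strand: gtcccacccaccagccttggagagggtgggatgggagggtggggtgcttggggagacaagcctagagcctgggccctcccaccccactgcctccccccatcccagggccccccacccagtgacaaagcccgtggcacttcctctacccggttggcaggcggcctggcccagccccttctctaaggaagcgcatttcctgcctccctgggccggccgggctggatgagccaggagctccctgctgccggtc
LTBP2, chr14:74612238-74612487, minus strand: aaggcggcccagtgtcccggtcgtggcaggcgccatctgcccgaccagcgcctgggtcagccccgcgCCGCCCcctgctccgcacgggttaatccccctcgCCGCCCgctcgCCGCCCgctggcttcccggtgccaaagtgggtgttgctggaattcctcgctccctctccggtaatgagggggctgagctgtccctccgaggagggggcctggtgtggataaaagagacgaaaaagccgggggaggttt

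The 3 windows had little in common in these letters. That of TGFB2 held the SMAD element 243 and 53 bases before the start, an E-box 49 bases before it that overlaps the nearer SMAD element, and a TATA box 29 bases before it. The SMAD element occurred in 38.0% of all 35116 RefSeq promoter windows of this length, the E-box in 6.34% and the TATA box in 10.7%. LTBP2 had 3 GC boxes, a motif found in 42.6% of the windows, and ENG had a match to none of the 7 motifs. The exact letters TAAACA of the forkhead core were in none of the 3 windows and in 11.0% of all windows. Other forms of a forkhead site were not searched and may be present. The letters searched for the cyclic AMP response element, in 1.65% of all windows, and for the AP-1 element, in 6.57%, were also in none of the 3. Variants of these elements were not searched either and may be present. GC content was 50.4% for TGFB2, 69.6% for ENG and 68.8% for LTBP2, against a median of 58.0%.

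To ask how SMAD3 with wild type FOXL2 altered these genes, FOXL2WT was compared with Vectors. TGFB2 rose 1.15-fold, whereas ENG, LTBP2 and LTBP3 fell to 0.84, 0.84 and 0.80 of their level. Of 10 members 1 was higher and 3 were lower, against 2.46% and 3.61% of all genes tested. The median log2 fold change of the members was -0.16, against 0.0025 over all genes. For 5 members the libraries of the conditions did not overlap, against 31.1% of all genes.

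TGFB2 was measured at 271, 271 and 266 CPM in Vectors and at 323, 310 and 293 CPM in FOXL2WT. All FOXL2WT libraries were above all Vectors libraries. This was a log2 fold change of 0.20 (SE 0.039, edgeR quasi-likelihood test, adjusted p = 0.0054). It was 0.14 with DESeq2 and transcript length offsets, where the call was lost (adjusted p = 0.065).

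ENG encodes endoglin, a coreceptor that binds ligand together with the signalling receptors and is best known in endothelium. It was measured at 68.1, 63.4 and 63.4 CPM in Vectors and at 56.6, 48.5 and 57.4 CPM in FOXL2WT. The conditions did not overlap, and FOXL2WT library B, which held 14992137 counts, was the lowest of all 15. The log2 fold change was -0.26 (SE 0.064, edgeR adjusted p = 0.023). Without FOXL2WT library B it was -0.19, and without Vectors library A -0.22, both with an edgeR adjusted p = 0.13. The endothelial markers PECAM1, CDH5 and VWF, all 3 detected, summed to 6.28 to 7.15 CPM in Vectors, 3.76 to 6.37 CPM in FOXL2WT and 4.51 to 5.71 CPM in FOXL2C134W, and their part in the result was not tested.

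LTBP2, which belongs to the microfibrils of the matrix, was measured at 122, 115 and 113 CPM in Vectors and at 101, 95.2 and 98.8 CPM in FOXL2WT. Every FOXL2WT library was below every Vectors library. On the log2 scale the change was -0.25 (SE 0.054, edgeR adjusted p = 0.0096), and it was -0.39 with DESeq2 and transcript length offsets (adjusted p = 0.01). The call was lost without Vectors library A (-0.21, edgeR adjusted p = 0.077) and without FOXL2WT library B (-0.23, edgeR adjusted p = 0.065).

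LTBP3, which binds the latent complex of TGF-beta covalently, was measured at 35.9, 31.8 and 29.4 CPM in Vectors and at 27.6, 22.7 and 26.8 CPM in FOXL2WT. The conditions were separated by less than the spread within either of them. The log2 fold change was -0.33 (SE 0.087, edgeR adjusted p = 0.034). With DESeq2 and transcript length offsets the direction turned (0.057, adjusted p = 0.92), and the call was lost when any of 4 of the 6 libraries was left out: Vectors A (-0.24), Vectors B (-0.34), FOXL2WT B (-0.25) or FOXL2WT C (-0.36). Without FOXL2WT A it was just under the threshold (-0.38, edgeR adjusted p = 0.0498). In TPM the means of LTBP3 were 12.3 in Vectors and 12.7 in FOXL2WT.

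The summed level of 4 markers of theca and stroma was lower in FOXL2WT as well. It was 1515 to 1583 CPM in Vectors, 1064 to 1206 CPM in FOXL2WT and 1341 to 1346 CPM in FOXL2C134W. Of the 4 markers, 2 passed the filter. COL1A1, which fell by 0.42 on the log2 scale (edgeR adjusted p = 8.4e-05), made up nearly all of the sum, and CYP17A1, the enzyme that defines theca, was at 0 counts in 12 libraries. The libraries came from a single line, so the sum is not read as a share of theca or stroma cells. The part of these markers in the result was not tested, and in bulk RNA fewer expressing cells and less RNA per cell cannot be told apart.

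**Figure D2:**
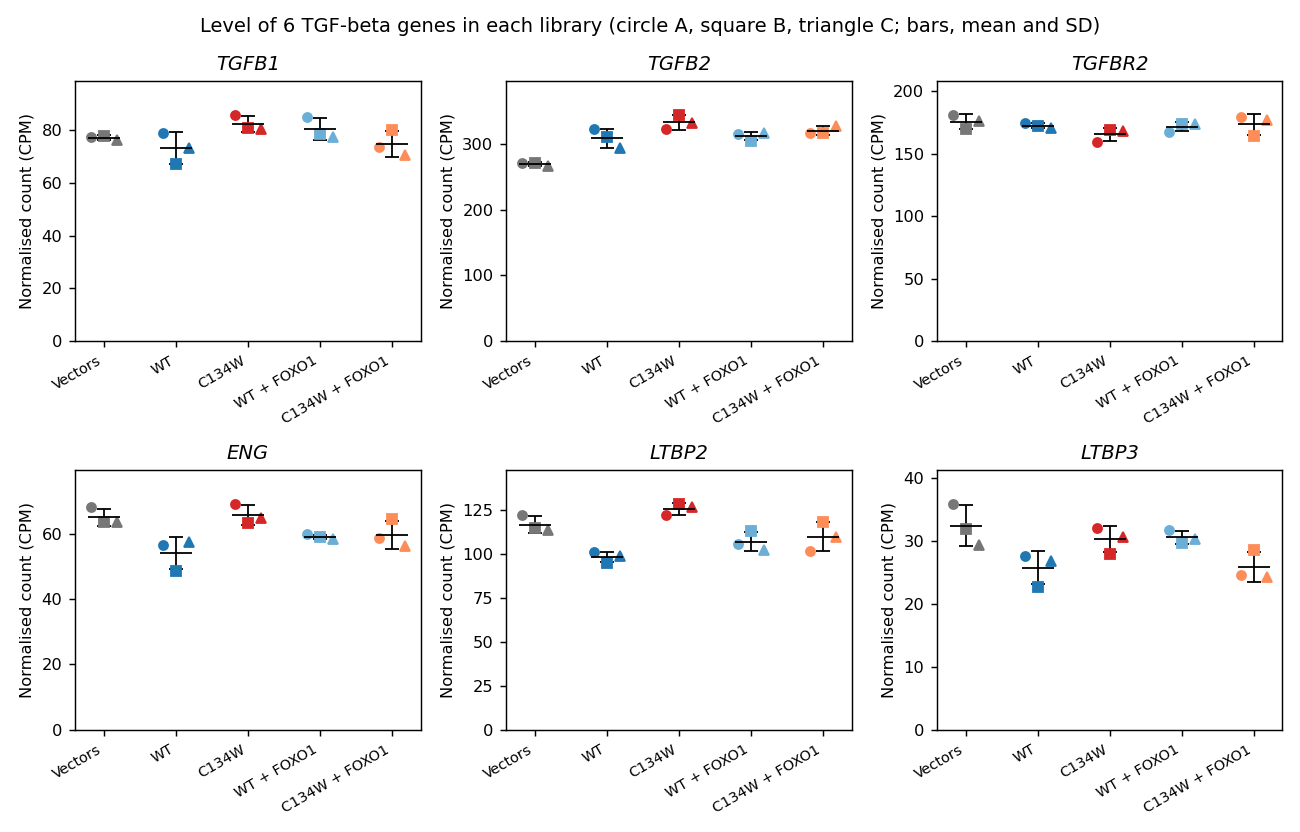
Normalised count in CPM (axes from 0) of TGFB1, TGFB2, TGFBR2, ENG, LTBP2 and LTBP3 in the 15 libraries, with library letters as symbols and the mean and SD of 3 libraries in black. TGFB2 is lowest in Vectors (266 to 271 CPM), while ENG and LTBP2 are lowest on average in FOXL2WT.

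FOXL2C134W was then compared with Vectors. Here TGFB2 was the only member called, at 1.24-fold. Over all genes 7.48% were called higher and 7.24% lower, and the median log2 fold change was -0.05 in the members and 0.0043 over all genes. TGFB2 was measured at 323, 344 and 332 CPM, above all Vectors libraries, with a log2 fold change of 0.31 (SE 0.039, edgeR adjusted p = 4.1e-05). The call held under all 16 alternatives, with values from 0.27 to 0.33. ENG was at 69.2, 63.2 and 64.7 CPM in FOXL2C134W and overlapped Vectors, and its interval ran from 0.92-fold to 1.11-fold. LTBP2 was at 122, 129 and 127 CPM (interval 1.00-fold to 1.16-fold) and LTBP3 at 32.0, 28.0 and 30.6 CPM (interval 0.83-fold to 1.06-fold). The libraries of TGFBR2 did not overlap between the conditions, at 181, 170 and 177 CPM in Vectors and 159, 169 and 169 CPM in FOXL2C134W. The log2 fold change of TGFBR2 was -0.09 (edgeR adjusted p = 0.18), and it reached -0.13 with a gene length offset (edgeR adjusted p = 0.013).

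The question of what the variant changes relative to the wild type protein was addressed by FOXL2C134W against FOXL2WT. ENG was 1.21-fold and LTBP2 1.28-fold higher with the variant. The FOXL2WT libraries also served in the contrast with Vectors, so that the falls there and these differences are not separate results. Both called members of the 10 were higher, and over all genes 7.13% were called higher and 4.12% lower. In 5 members the libraries of the conditions did not overlap, against 30.4% of all genes. The median log2 fold change was 0.10 in the members and -0.01 over all genes.

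ENG ranged from 63.2 to 69.2 CPM in FOXL2C134W and from 48.5 to 57.4 CPM in FOXL2WT, a log2 fold change of 0.27 (SE 0.064, edgeR adjusted p = 0.0092). Without FOXL2WT library B it was 0.21 (edgeR adjusted p = 0.056). LTBP2 ranged from 122 to 129 CPM in FOXL2C134W and from 95.2 to 101 CPM in FOXL2WT, a log2 fold change of 0.35 (SE 0.054, edgeR adjusted p = 0.00037). LTBP2 has a mean transcript length of 7419 bases, against a median of 2110 bases over the genes tested, and with a gene length offset its log2 fold change was 0.18 (edgeR adjusted p = 0.025). The call of LTBP2 held in all 16 alternatives.

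The ligands TGFB1 and TGFB2 and the binding protein LTBP3 were near the threshold. TGFB1 was measured at 85.7, 80.6 and 80.5 CPM in FOXL2C134W and at 79.0, 67.1 and 73.4 CPM in FOXL2WT, which did not overlap (log2 fold change 0.17, edgeR adjusted p = 0.076). TGFB2 gave 0.11 (edgeR adjusted p = 0.08) with overlapping libraries, and LTBP3 0.23 (edgeR adjusted p = 0.11). DESeq2 called TGFB1 (adjusted p = 0.046) and TGFB2 (adjusted p = 0.025). The receptors gave no call in edgeR, with intervals of 0.90-fold to 1.07-fold for TGFBR1, 0.90-fold to 1.02-fold for TGFBR2 and 0.90-fold to 1.24-fold for TGFBR3. With a gene length offset, TGFBR2 gave -0.13 (edgeR adjusted p = 0.019). For TGFB3 and LTBP1 the depth allowed only wide intervals, 0.72-fold to 1.32-fold and 0.63-fold to 1.27-fold.

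**Figure D3:**
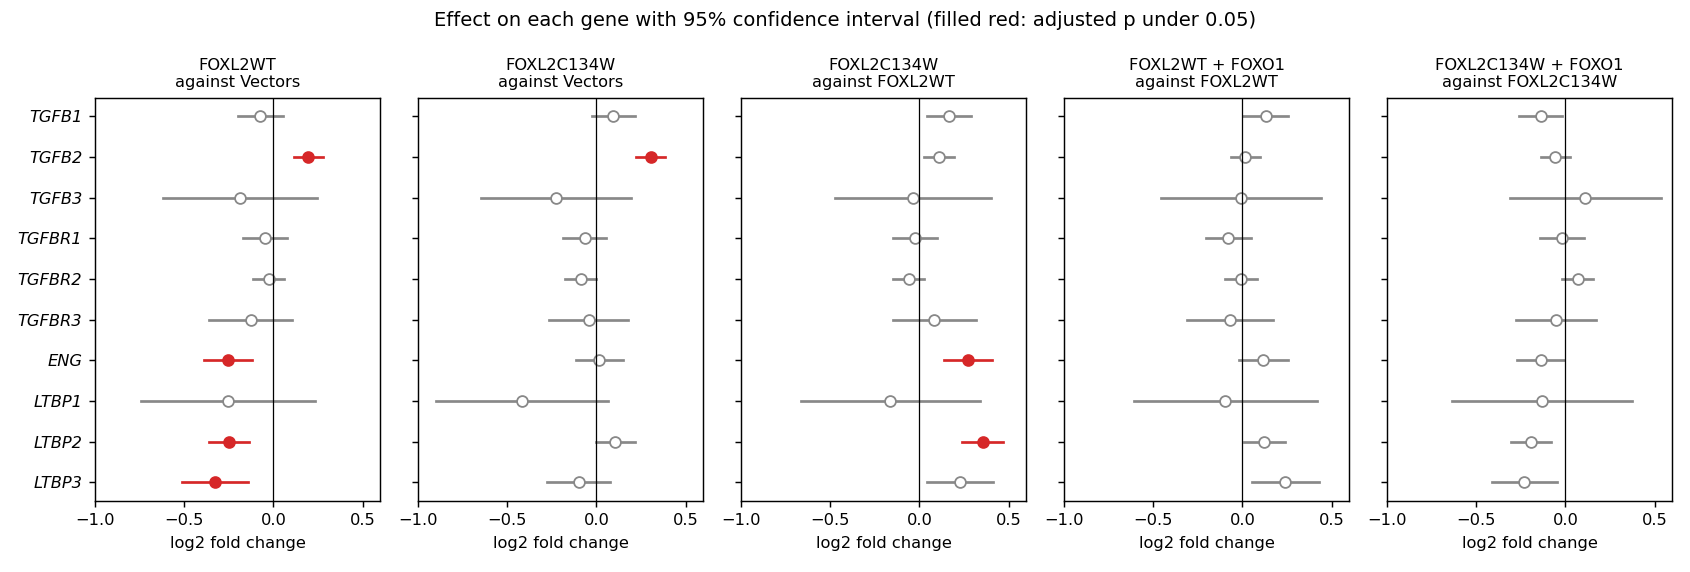
Log2 fold change of the 10 genes with its 95% confidence interval in 5 comparisons, filled red where the edgeR adjusted p was under 0.05. ENG, LTBP2 and LTBP3 lie left of 0 with FOXL2WT and right of 0 where FOXL2C134W is set against FOXL2WT, where LTBP3 was not called. These contrasts share the FOXL2WT libraries, with opposite sign. No member was called by edgeR when FOXO1 was added.

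With FOXO1 added, no member passed the threshold in edgeR. SMAD3 was lower with FOXO1, at 969 against 2768 CPM for the wild type and 392 against 843 CPM for the variant. FOXL2 was also lower for the wild type, at 384 against 561 CPM. In these contrasts FOXO1 and the lower level of the other plasmids cannot be told apart. In FOXL2WT + FOXO1 against FOXL2WT, 0 of 10 members were called by edgeR, with 3 at an unadjusted p under 0.05, and DESeq2 also called 0. Over all genes 0.0505% were called. The median log2 fold change of the members was 0.0052, against 0.00015 over all genes. The 3 members were TGFB1 (log2 fold change 0.13), LTBP2 (0.12) and LTBP3 (0.24), and their edgeR adjusted p-values were 0.53, 0.51 and 0.44. In FOXL2C134W + FOXO1 against FOXL2C134W, edgeR called 0 of 10 members, with 4 at an unadjusted p under 0.05, and 0.714% of all genes. The median of the members was -0.09, against 0.0039 over all genes, and 2 of 10 were above 0. These 4 were TGFB1 (-0.14), ENG (-0.14), LTBP2 (-0.19) and LTBP3 (-0.23). LTBP2 was at 122, 129 and 127 CPM without and 102, 118 and 110 CPM with FOXO1 in the variant condition. Its adjusted p was 0.10 with edgeR and 0.041 with DESeq2, which called this 1 member and 215 of 11721 genes.

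The difference between these effects of FOXO1 was tested as an interaction. The test includes the same FOXL2WT and FOXL2C134W libraries as the contrast between them, so that it is not a separate result. LTBP2 differed, with a log2 value of -0.32 (SE 0.076, edgeR adjusted p = 0.046), and it was 1 of 10 members with a lower effect in the variant condition, against 1.25% of all genes. LTBP3 gave -0.47 (edgeR adjusted p = 0.068), TGFB1 -0.27 (edgeR adjusted p = 0.14) and ENG -0.26 (edgeR adjusted p = 0.21). The call of LTBP2 was lost in 15 of 22 alternatives, with an adjusted p from 0.0021 to 0.24. FOXO1 transcript rose by 3.26 on the log2 scale in FOXL2WT and by 1.85 in FOXL2C134W, and SMAD3 fell by 1.51 and 1.11. FOXL2 fell by 0.55 when FOXO1 was added to FOXL2WT (edgeR adjusted p = 0.031), and its value in FOXL2C134W was 0.05 (edgeR adjusted p = 0.92, interaction adjusted p = 0.033), so that the dose and the variant cannot be told apart here either.

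In the presence of FOXO1, no member was called between the variant and the wild type. FOXL2C134W + FOXO1 against FOXL2WT + FOXO1 gave 0 calls with edgeR and with DESeq2 and 1 member, LTBP3, at an unadjusted p under 0.05 (log2 fold change -0.24, edgeR adjusted p = 0.25). Of all genes 0.144% were called. ENG was at 59.7, 58.9 and 58.4 CPM in FOXL2WT + FOXO1 and at 58.6, 64.4 and 56.1 CPM in FOXL2C134W + FOXO1. LTBP2 was at 106, 113 and 102 CPM and at 102, 118 and 110 CPM in the same order. The conditions overlapped for both genes. FOXL2C134W + FOXO1 against FOXL2WT also gave 0 calls with edgeR and with DESeq2, with 1.69% called over all genes. LTBP2 was the 1 member with an unadjusted p under 0.05 in edgeR (log2 fold change 0.16, adjusted p = 0.12).

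Against Vectors, which was also the control of the contrasts above, TGFB2 stayed higher with FOXO1. It was at 315, 305 and 316 CPM in FOXL2WT + FOXO1 and at 317, 316 and 328 CPM in FOXL2C134W + FOXO1, above all Vectors libraries. The log2 fold changes were 0.21 (SE 0.039, edgeR adjusted p = 0.0042) and 0.25 (SE 0.039, edgeR adjusted p = 0.00042). These comparisons were added after the data were seen. TGFB2 was the 1 member called in the first of them, against 1.41% of genes called higher. In FOXL2C134W + FOXO1, TGFB2 was 1 member higher and LTBP3 1 member lower, against 4.17% and 5.16% of all genes. LTBP3 was at 24.6, 28.5 and 24.2 CPM there (log2 fold change -0.33, SE 0.086, edgeR adjusted p = 0.021), and this value turned to 0.070 with DESeq2 and transcript length offsets (adjusted p = 0.88). The call of LTBP3 was also lost without Vectors library A (-0.25) and without library A (-0.30) or C (-0.28) of FOXL2C134W + FOXO1.

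TGFB1, TGFB3, TGFBR1, TGFBR2, TGFBR3 and LTBP1 were called in none of the 10 comparisons in the edgeR fit of all 15 libraries with its usual filter and no offset. TGFB1 and TGFBR2 passed the threshold under some of the alternatives. TGFBR1 (chr9:99104038-99154192, plus strand), the kinase that phosphorylates SMAD3, stayed between 45.0 and 52.3 CPM over all libraries. It was at 52.0, 51.8 and 51.3 CPM in Vectors and at 47.0, 48.2 and 47.1 CPM in FOXL2WT + FOXO1, its lowest mean. These did not overlap (log2 fold change -0.12, edgeR adjusted p = 0.29). TGFBR2 (chr3:30606601-30694142, plus strand), the receptor that binds ligand first, stayed between 159 and 181 CPM.

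TGFB1 (chr19:41301587-41353922, minus strand) ranged from 67.1 to 85.7 CPM, with the highest mean in FOXL2C134W (82.3 ± 3.01 CPM, SD, n = 3) and the lowest in FOXL2WT (73.1 ± 5.98 CPM). TGFBR3 (chr1:91680343-91906335, minus strand), also named betaglycan, ranged from 6.12 to 8.55 CPM, and its conditions overlapped. TGFB3 (chr14:75958097-75983011, minus strand) ranged from 1.33 to 2.42 CPM, both in FOXL2WT.

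LTBP1 (chr2:32946953-33399509, plus strand) was at 2.79, 2.52 and 2.48 CPM in Vectors, above the libraries of every other condition. It was at 1.86, 2.42 and 2.27 CPM in FOXL2WT, at 1.46, 2.01 and 2.40 CPM in FOXL2C134W, at 1.41, 2.18 and 2.41 CPM in FOXL2WT + FOXO1 and at 2.22, 1.28 and 1.85 CPM in FOXL2C134W + FOXO1. Against Vectors the log2 fold change was -0.25 in FOXL2WT (edgeR adjusted p = 0.58), -0.42 in FOXL2C134W (edgeR adjusted p = 0.25) and -0.55 in FOXL2C134W + FOXO1 (edgeR adjusted p = 0.15), so that no loss of LTBP1 was shown at this depth. LTBP3 lies on the minus strand of chromosome 11 (chr11:65538559-65558930).

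The genes whose pattern over the 15 libraries was most like that of TGFB2 were IGFBP5, which encodes a binding protein of insulin-like growth factors, PRKAR2A, a regulatory subunit of protein kinase A, and INSYN2B. Pearson's r of log2 CPM was 0.94, 0.93 and 0.93. These points share libraries and conditions, and the values describe only how close the profiles are. Mean IGFBP5 was 52.5 CPM in Vectors, 61.2 CPM in FOXL2WT and 72.1 CPM in FOXL2C134W.

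The transcript make-up of the members was estimated from the transcript tables. TGFB1-201 (ENST00000221930) held 98.5% to 99.7% of the reads of TGFB1, and ENG-202 held 84.7% to 99.1% of those of ENG. TGFB2-202 (ENST00000366930), the main coding transcript of TGFB2, held 69.0% to 76.9% of its reads. TGFB2-203, annotated as a processed transcript without a coding sequence, held 18.2% to 22.0%. Since TGFB2-203 is short (1508 bases against 5868), it made up 52.4% of the TPM of TGFB2 on average, and the share of TGFB2-202 was 42.3% in TPM. The TPM of TGFB2 given above includes both. LTBP2-201 held 81.3% to 90.4% of the reads of LTBP2, and LTBP2-202, annotated as a target of nonsense-mediated decay, held 9.65% to 17.9%. In TGFBR1, the leading transcript TGFBR1-209 ranged from 27.9% to 86.7% and TGFBR1-201 from 0% to 61.6% between libraries, and in LTBP1 the leading transcript LTBP1-203 ranged from 12.7% to 100%.

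In 7 members with at least 2 transcripts above 10% of the reads, the share of the leading transcript was compared between FOXL2WT and Vectors, FOXL2C134W and Vectors, and FOXL2C134W and FOXL2WT. Of these 21 exact permutation tests (two-sided, 3 libraries against 3), none could give a p below 0.1, and the lowest adjusted p was 0.6. TGFB2-202 averaged 71.5% in Vectors, 74.6% in FOXL2WT and 72.8% in FOXL2C134W. LTBP3-202 averaged 55.3% in Vectors, 57.0% in FOXL2WT and 38.7% in FOXL2C134W, and its share spread from 32.2% to 63.9% over all libraries.

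The partners of these genes in the extracellular handling of TGF-beta were taken from a list of 21 genes, of which 16 were tested. With FOXL2WT, 1 was higher and 5 were lower than in Vectors, against 2.46% and 3.61% of all genes tested, and the median log2 fold change of the list was -0.15. Fibronectin FN1 (log2 fold change -0.29), fibrillin FBN1 (-0.26), both of which anchor the latent complex, and the proteases MMP14 (-0.25) and MMP2 (-0.23), which can release the ligand, had the largest changes among the called genes. THBS1, thrombospondin, an activator of latent TGF-beta, was higher (0.14, edgeR adjusted p = 0.04). With FOXL2C134W against Vectors, THBS1 rose (0.38, edgeR adjusted p = 4e-06), whereas MMP2 (-0.26) and the integrin subunits ITGAV (-0.16) and ITGB1 (-0.14) fell. FOXL2C134W against FOXL2WT gave 5 called genes, all higher, against 7.13% of all genes. They were FN1 (0.30), LTBP4 (0.29), a further latent-binding protein, the proteoglycan BGN (0.25), THBS1 (0.24) and FURIN (0.20), the protease that cleaves the propeptide of the ligands. The median over the list was 0.11, against -0.01 over all genes.

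All of 18 genes that carry or restrain the signal were tested, and 3 were called with FOXL2WT against Vectors, all lower, against 3.61% of all genes. They were the coreceptor NRP1 (-0.29), the decoy receptor BAMBI (-0.28) and the inhibitory coreceptor CD109 (-0.25). With FOXL2C134W against Vectors 3 were higher and 4 lower, against 7.48% and 7.24% of all genes. The median log2 fold change of the list was 0.03 with FOXL2WT and 0.0092 with FOXL2C134W. ACVRL1, an alternative type I receptor, fell by 0.81 on the log2 scale from 2.12 to 1.20 CPM, and BAMBI fell by 0.53. The SMAD repressor SKI (0.34) and the feedback inhibitor PMEPA1 (0.33) rose. In FOXL2C134W against FOXL2WT, SKI was higher (0.36, edgeR adjusted p = 5e-04) and BAMBI lower (-0.25, edgeR adjusted p = 0.0061).

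Among 14 genes known as transcriptional targets of TGF-beta, 4 rose and 2 fell with FOXL2WT, and 4 rose and 6 fell with FOXL2C134W, each against Vectors. Over all genes tested 2.46% rose and 3.61% fell with FOXL2WT, and 7.48% rose and 7.24% fell with FOXL2C134W. The median log2 fold change of the list was -0.03 with FOXL2WT and -0.12 with FOXL2C134W. The matricellular genes CCN2 and CCN1 rose by 0.47 and 0.41 with FOXL2WT and by 0.40 and 0.36 with FOXL2C134W. TAGLN, an actin-binding protein of smooth muscle, rose by 0.41 with FOXL2WT and by 0.29 with FOXL2C134W. The collagen genes COL1A1 and COL3A1 fell by 0.42 and 0.34 with FOXL2WT, and COL3A1 and JUNB fell by 0.44 and 0.42 with FOXL2C134W. In FOXL2C134W against FOXL2WT, COL1A1 was higher (0.23) and JUNB, an AP-1 subunit, lower (-0.42). Addition of FOXO1 to FOXL2WT gave 0 calls with edgeR among the 48 genes tested in the 3 lists, with 11 at an unadjusted p under 0.05 and 0 called by DESeq2. Over all genes edgeR called 0.0505% and DESeq2 63 of 7311. Addition of FOXO1 to FOXL2C134W also gave 0 calls with edgeR, with 10 at an unadjusted p under 0.05 and 3 called by DESeq2. Here edgeR called 0.714% of all genes and DESeq2 215 of 11721. In the interaction COL1A1 was called (-0.34, edgeR adjusted p = 0.029), in the direction of LTBP2. Against Vectors, 5 target genes rose and 5 fell in FOXL2WT + FOXO1, and 4 rose and 6 fell in FOXL2C134W + FOXO1, and among all genes 1.41% and 4.17% rose and 2.37% and 5.16% fell in these comparisons.

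**Figure D4:**
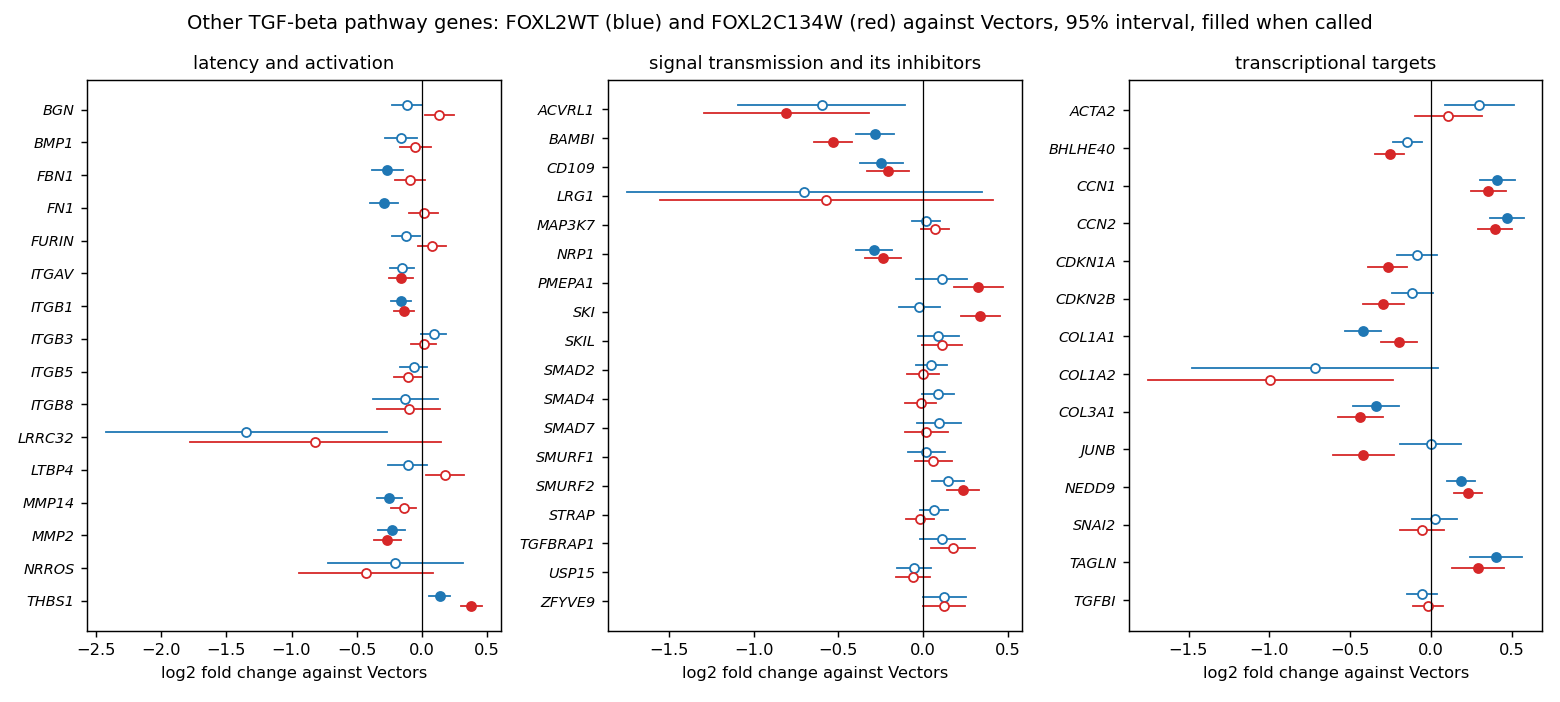
Log2 fold change against Vectors, with its 95% confidence interval, of the tested genes of the 3 pathway lists, in blue for FOXL2WT and in red for FOXL2C134W, filled where the edgeR adjusted p was under 0.05. CCN1, CCN2 and TAGLN lie to the right of 0 with both proteins, and BAMBI, NRP1 and COL3A1 to the left.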

How the data were processed

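Estimated counts per gene were deposited by the authors without normalization. They had run Salmon (version 1.1.0, per the labels) on hg38 transcripts and summed the estimates to whole numbers per gene. TPM values and estimated reads of 227063 transcripts were also deposited by the authors for each library. All 15 libraries were grouped by their labels and 0 columns were unmatched. Nothing in the labels says that replicates came from separate cultures, so p-values measure the spread between these libraries, which may be technical.

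Low genes were removed with filterByExpr and TMM scaling was used. The contrasts were taken from 1 fit of all libraries with the quasi-likelihood test of edgeR 4.0.16 (R 4.3.3). A call required a Benjamini-Hochberg adjusted p below 0.05 over all 13868 genes. Intervals are at 95%, and a prior count of 2 was added for log2 CPM. The code was tested on simulated data. The alternatives were DESeq2 1.42.0, with and without transcript length offsets, its size factors in edgeR, 2 other filters, fitting each contrast on its own libraries, the replicate letter as a block, lowess offsets (span 0.3) for GC content or gene length, and omission of each library. Coordinates and GC content came from GENCODE 44, which held 98.4% of the transcripts. Transcript types came from the deposited transcript names. Promoter windows of all 10 members were matched by symbol in RefSeq.

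The members and the 3 pathway lists were chosen with earlier results of these data known. The text describes all members, up to 4 called genes of each list with the largest change per comparison, and the 3 genes most like the member called most often. That member was TGFB2, and its rank rested on comparisons added after the data were seen. FURIN was named after its values were seen. One gene of the list of transcriptional targets is not reported here, and the counts and medians of that list leave it out.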

Additional observations from a re-analysis of the deposited data

Results flagged for a closer look

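In the edgeR fit of all 15 libraries, the effect of FOXO1 on LTBP2 differed between the conditions with the variant and with wild type FOXL2. This was a test of the difference itself. The interaction was -0.32 on the log2 scale (SE 0.076, edgeR adjusted p = 0.046). The log2 fold change with FOXO1 was 0.12 in FOXL2WT (edgeR adjusted p = 0.51) and -0.19 in FOXL2C134W (edgeR adjusted p = 0.10), and neither passed the threshold. In CPM the means were 98.4 and 107 without and with FOXO1 for the wild type, and 126 and 110 for the variant. The interaction passed the threshold in 7 of 22 alternatives, in 3 of the 12 that left out a library. The transcript levels of the plasmids also differed between these conditions, and the dose and the variant cannot be told apart.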

How the results depend on the processing

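TGFB2 was higher than in Vectors in FOXL2C134W and in both conditions with FOXO1. LTBP2 was higher in FOXL2C134W than in FOXL2WT. Each of these differences passed the threshold in all 16 alternatives run for it. The comparisons of the FOXO1 conditions with Vectors were added after the data were seen.

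Counts of members called changed as follows, and the genes called over the whole table changed too. Of 13868 genes, the edgeR fit of all 15 libraries called 842 in FOXL2WT against Vectors, 2041 in FOXL2C134W against Vectors and 1560 in FOXL2C134W against FOXL2WT. It called 99 in FOXL2C134W + FOXO1 against FOXL2C134W, 234 against FOXL2WT and 1294 against Vectors. FOXL2WT + FOXO1 against Vectors had 524 called genes and the interaction 192. With DESeq2 there were 4 in FOXL2C134W against FOXL2WT, 1 in FOXL2C134W + FOXO1 against FOXL2C134W and 2 in the interaction. Over all genes DESeq2 called 1671 of 11721, 215 of 11721 and 365 of 11280 in these contrasts. With DESeq2 and transcript length offsets there were 2 in FOXL2WT against Vectors, 3 in FOXL2C134W against FOXL2WT, 1 in FOXL2C134W + FOXO1 against Vectors and 0 in the interaction, where 4 members had an unadjusted p under 0.05. Over all genes this setting called 456 of 13921, 707 of 11717, 719 of 13480 and 113 of 11276. LTBP3 reversed in both contrasts with Vectors, to 0.057 and 0.070. With genes of at least 1 count in any library kept, there were 4 in FOXL2C134W against FOXL2WT, 1 in FOXL2C134W + FOXO1 against FOXL2C134W, 1 in FOXL2C134W + FOXO1 against FOXL2WT and 3 in the interaction, and with at least 10 counts in every library 2 in the interaction. The first filter called 1954, 463, 1046 and 551 of 22745 genes, and the second 263 of 12491. The gene length offset gave 2 in FOXL2C134W against Vectors and 3 in FOXL2C134W against FOXL2WT, both also with the replicate block, and 0 in the interaction. Without the block it called 2239, 1494 and 264 of 13868 genes, and with it 2207 and 1480 in the first contrasts. The GC content offset gave 3 in FOXL2C134W against FOXL2WT, 1 in FOXL2C134W + FOXO1 against FOXL2WT, 2 in FOXL2WT + FOXO1 against Vectors and 0 in the interaction. It called 2041, 650, 695 and 161 of 13868 genes there. A fit of only the groups compared gave 0 in the interaction, where it called 132 of 13746 genes. The causes were not tested.

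The letters of the replicates did not pair the libraries (correlations of deviations from -0.16 to 0.12). A replicate block gave 0 calls in the interaction (LTBP2 -0.32, edgeR adjusted p = 0.055) and changed no other count of called members. Over all 13868 genes it called 163 in the interaction.

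With 1 library left out, the counts ran from 1 to 4 in FOXL2WT against Vectors, 1 to 4 in FOXL2C134W against FOXL2WT, 0 to 1 in FOXL2C134W + FOXO1 against FOXL2C134W, 1 to 2 in FOXL2C134W + FOXO1 against Vectors and 0 to 3 in the interaction. Over all genes the calls ran from 305 to 662, 772 to 2120, 5 to 355, 764 to 1122 and 45 to 423 in the same order. With all libraries they were 842, 1560, 99, 1294 and 192. For FOXL2WT against Vectors, 305 genes were called without Vectors library A and 345 without FOXL2WT library B.

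Depth limited TGFB3, LTBP1 and TGFBR3, whose counts per library were 25 to 58, 21 to 64 and 91 to 212. As shares of TPM in place of reads, the leading transcripts TGFB1-201, TGFB2-202, TGFB3-201, TGFBR3-201, LTBP2-201 and LTBP3-202 moved by more than 1 SD, to 93.2%, 42.3%, 50.2%, 76.2%, 76.2% and 32.6%.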
